A study of Mus musculus with 9 samples.

Results

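The 10 genes described here are the corticosteroid receptor genes Nr3c1 and Nr3c2 and 8 genes known as glucocorticoid targets, Fkbp5, Sgk1, Tsc22d3, Ddit4, Zbtb16, Mt1, Mt2 and Pdk4. They were taken by symbol, and all 10 were found among the 23988 symbols that both deposited tables share. RNA of microdissected dentate gyrus, the hippocampal region whose principal cells are granule neurons, was sequenced from individual C57BL/6 mice aged 8 weeks. There were 3 mice per group and 3 groups, called E0, E1 and E4. The labels name no genotype, transgene or sex, and leave the number in E0, E1 and E4 without a unit. In the study as it is known, E0 stands for mice before stimulation, and E1 and E4 for mice 1 h and 4 h after electroconvulsive stimulation, which drives granule neurons to synchronous firing. All measurements come from the authors' deposited tables of E1 against E0 and of E4 against E0. Each row holds a gene's mean normalised count and log2 fold change with the standard error (SE) and adjusted p of that change, and nothing per mouse. Both tables use the same E0 mice.

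Corticosterone, the main glucocorticoid of mice, acts in the hippocampus through both receptors. The mineralocorticoid receptor (Nr3c2) binds it with high affinity and is largely occupied at rest, and the glucocorticoid receptor (Nr3c1) binds it with lower affinity and is engaged at the daily peak and under stress. Unliganded receptors are held in the cytoplasm by Hsp90 and its co-chaperones, and after binding they move to the nucleus and act on target genes, in part through the glucocorticoid response element. Several of the targets also respond to other signals, among them neuronal activity for Sgk1 and metals for Mt1 and Mt2.

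Single reads in rarely read genes leave steps in the mean counts, and from these the depth was approximated at 6.14 M to 11.0 M (mega) reads in genes for the E0 libraries, 1.94 M to 4.76 M for E1 and 10.02 M to 13.6 M for E4. E1 was thus the least deeply read group, and the median SE over genes with mean counts of 50 or more was 0.17 for E1 and 0.135 for E4 in the authors' deposited tables. Group means were computed from each mean count and fold change and set on the scale of the table for E4. The E0 means found from either table lay within 5% of each other for 98.2% of the 9818 genes with mean counts of 50 or more in both. For the 10 genes they differed by between -1.91% and 2.96%.

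Of the 10 genes, 2 were raised and 3 lowered in E1 by the authors' adjusted p below 0.05, against 35.5% called (20.6% raised and 15.0% lowered) of the 15660 genes tested. Sgk1 and Zbtb16 rose, and Fkbp5, Mt1 and Mt2 fell. In E4 2 were raised, Nr3c2 and Fkbp5, and 1 was lowered, Pdk4, against 39.0% called (20.7% raised and 18.3% lowered) of 14455 genes tested. The median log2 fold change of the 10 was -0.0064 in E1 and 0.18 in E4, beside 0.017 and -0.0069 over all genes tested. The number of calls among the 10 thus lay near that of genes in general, and the genes went in different directions.

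**Figure D1:**
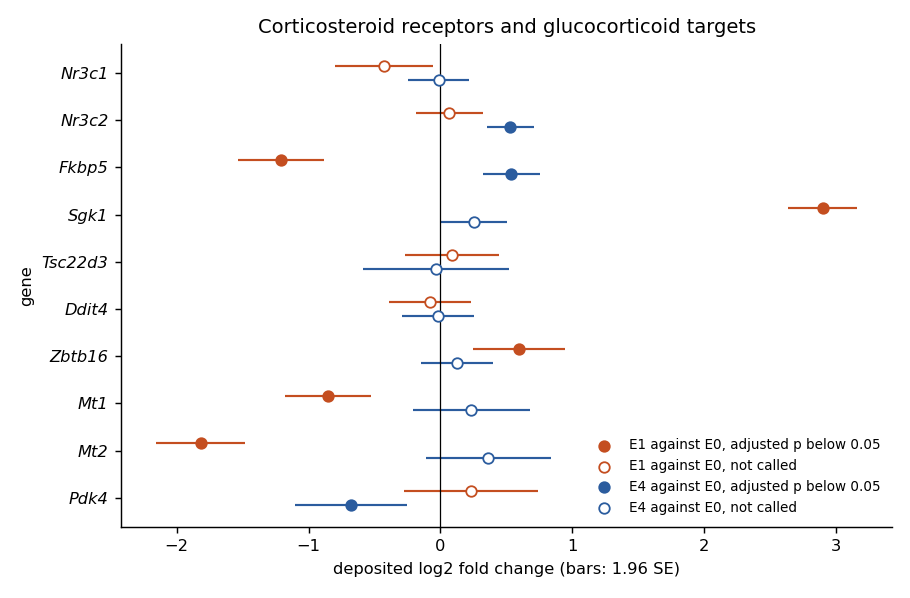
The x axis gives the log2 fold change of the authors' deposited tables and the y axis the 10 genes, with E1 against E0 in orange and E4 against E0 in blue, filled where the adjusted p was below 0.05, with 95% intervals as bars. Sgk1 at 2.90 and Mt2 at -1.82 in E1 lie farthest from 0, and Fkbp5 lies below 0 in E1 and above it in E4.

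**Figure D2:**
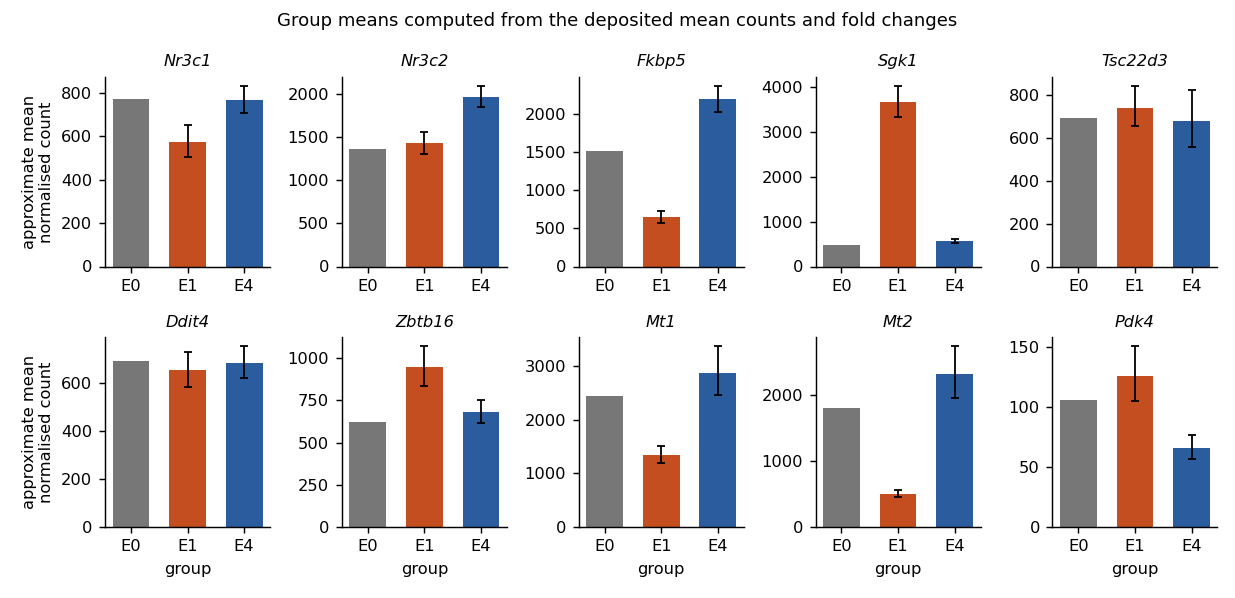
Each panel gives 1 gene, with the approximate mean normalised count in E0, E1 and E4 on the y axis, which starts at 0; whiskers on E1 and E4 are 1 SE of the fold change against E0, and E0 has none because the tables hold no value per mouse. Mt1, Mt2 and Fkbp5 have their lowest level in E1, and Sgk1 its highest.

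Both receptor genes were well read. Nr3c2, which encodes the mineralocorticoid receptor, had approximate means of 1356 in E0, 1424 in E1 and 1959 in E4. The authors' deposited table for E4 put it at 0.53 ± 0.09 (log2 fold change ± SE, adjusted p = 3.7e-08), a 1.45-fold rise. At E1 it was not called, at 0.07 ± 0.13 in the authors' deposited table (adjusted p = 0.732, interval -0.18 to 0.32, 95% and unadjusted as elsewhere). The later fold change was the higher of the 2 by 0.46 ± 0.16 (adjusted p = 0.0114). E4 was therefore the highest group for Nr3c2, and E1 and E0 did not differ beyond their error.

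Nr3c1, which encodes the glucocorticoid receptor, had approximate means of 773 in E0, 574 in E1 and 767 in E4. It was not called in E1, at -0.43 ± 0.19 in the authors' deposited table (adjusted p = 0.0634, interval -0.80 to -0.057). In the authors' deposited table for E4 it stood at -0.012 ± 0.12 (adjusted p = 0.951, interval -0.24 to 0.22). Its low value in E1 became a call once the trend with length and GC content of transcripts was removed (-0.67, adjusted p = 0.00189), and not when length was taken from each gene's shortest coding transcript (-0.45, adjusted p = 0.0502). The difference between E4 and E1 was 0.42 ± 0.22 (adjusted p = 0.133, and 0.0249 when a correlation of 0.5 is assumed for the shared E0 mice).

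Per kilobase of the longest coding transcript, Nr3c2 had an approximate E0 mean of 229 and Nr3c1 one of 120. On the same scale Mt2 had 3536, Mt1 2253, Ddit4 395, Fkbp5 393, Tsc22d3 351, Sgk1 154, Zbtb16 122 and Pdk4 30.3. The metallothionein genes were the most abundant of the 10 and Pdk4 the least. Which transcript of each gene was counted is not given in the sources used here, and the order depends on it. With each gene's first-numbered transcript in GENCODE the E0 mean per kilobase was 4453 for Mt1, above Mt2, and 459 for Nr3c2, above Fkbp5 (427) and Ddit4.

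Fkbp5 encodes FKBP51, a co-chaperone that lowers the affinity of the receptor complex for hormone and is itself induced by it, which closes a short feedback loop. Its approximate means were 1514 in E0, 646 in E1 and 2197 in E4. It was lowered at E1 in the authors' deposited table, at -1.21 ± 0.17 (adjusted p = 7.8e-12, 2.31-fold lower). It was raised at E4 in the authors' deposited table, at 0.54 ± 0.11 (adjusted p = 7.1e-06, 1.45-fold). Fkbp5 was the only one of the 10 called in both comparisons, and the calls were in opposite directions. The share of all genes called in both, or in opposite directions, was not computed, so nothing is read from this count. The fold change was higher in E4 than in E1 by 1.75 ± 0.20 (adjusted p = 1.3e-16), so that all 3 groups stood apart in the order E4, E0, E1.

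Sgk1 encodes a kinase that acts on ion channels and transporters and is a classical target of both receptors. Its approximate means were 478 in E0, 3666 in E1 and 569 in E4. The authors' deposited table for E1 had it at 2.90 ± 0.13 (adjusted p = 3.9e-100), a 7.46-fold rise that was larger than the change of 97.6% of the genes tested. At E4 it was not called, at 0.25 ± 0.13 in the authors' deposited table (adjusted p = 0.101, interval 0.0058 to 0.50), although with genes of like shortest coding transcript subtracted it was (0.32, adjusted p = 0.0347). Between the 2 times the fold change dropped by 2.64 ± 0.18 on the log2 scale (adjusted p = 8.5e-44).

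RefSeq (GRCm38.p6) windows of 300 bases around a gene's start were searched for 8 of the 10 genes, 15 windows in all, 6 of them for Sgk1. Nr3c1 and Zbtb16 had none. For Nr3c1 this follows from the search, which left out every window of the chromosome that holds it. Shares given below over all windows are without that chromosome too. Windows were matched by symbol, and their build is not the mm9 of the authors' alignment. The full glucocorticoid response element, searched as AGAACA, 3 bases of any kind and TGTTCT, which reads alike on both strands, was found in 3 of 32851 windows (0.00913%). One of the 3 belongs to Sgk1, and its window is shown for that reason, with the element, which begins 189 bases before the start, in capitals.
Sgk1 (chr10:21993640-21993939, + strand): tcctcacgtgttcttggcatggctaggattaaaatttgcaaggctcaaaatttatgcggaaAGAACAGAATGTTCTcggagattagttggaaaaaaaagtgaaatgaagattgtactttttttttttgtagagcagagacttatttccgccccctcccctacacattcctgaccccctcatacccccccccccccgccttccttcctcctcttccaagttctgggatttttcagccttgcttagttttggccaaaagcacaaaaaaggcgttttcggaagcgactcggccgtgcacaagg
The half-site AGAACA, both strands and counting those inside a full element, was found in 19.0% of all windows. In these genes it occurred in 3 Sgk1 windows, 3 times in the one shown, and in 1 of 3 Tsc22d3 windows. The window of Fkbp5 held neither form, which says only that these letters are not within it. The cAMP response element TGACGTCA (1.79% of all windows) was in none of the 15, and the AP-1 element TGANTCA (7.81%) was in that of Mt2 alone. A match describes the letters and is no evidence of binding.

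Mt1 and Mt2 encode metallothioneins, small proteins that bind zinc and copper, are abundant in astrocytes, and are induced by metals through Mtf1 and by glucocorticoids. Mt2 had approximate means of 1807 in E0, 502 in E1 and 2323 in E4, and Mt1 had 2444 in E0, 1336 in E1 and 2878 in E4. In the authors' deposited table for E1 Mt2 was lowered at -1.82 ± 0.17 (adjusted p = 1.4e-24, 3.53-fold lower). Mt1 was lowered in the same way, at -0.85 ± 0.17 in the authors' deposited table for E1 (adjusted p = 2.6e-06, 1.81-fold lower). At E4 neither was called, with Mt2 at 0.36 ± 0.24 (adjusted p = 0.242, interval -0.11 to 0.84) and Mt1 at 0.24 ± 0.23 (adjusted p = 0.450, interval -0.21 to 0.68) in the authors' deposited table. The fold changes were higher in E4 than in E1 by 2.18 ± 0.30 for Mt2 (adjusted p = 4.4e-12) and by 1.09 ± 0.28 for Mt1 (adjusted p = 0.00062).

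No protein-coding gene lies between Mt2 and Mt1 in the GENCODE annotation, and their longest shared run of identical transcript bases is 20. Reads of ordinary length can therefore be told apart, though how reads matching both were counted is not given. Their windows are shown because the pair moved in one direction, with the core of the metal response element (TGCACNC or TGCGCNC on either strand) in capitals.
Mt1 (chr8:94178839-94179138, + strand): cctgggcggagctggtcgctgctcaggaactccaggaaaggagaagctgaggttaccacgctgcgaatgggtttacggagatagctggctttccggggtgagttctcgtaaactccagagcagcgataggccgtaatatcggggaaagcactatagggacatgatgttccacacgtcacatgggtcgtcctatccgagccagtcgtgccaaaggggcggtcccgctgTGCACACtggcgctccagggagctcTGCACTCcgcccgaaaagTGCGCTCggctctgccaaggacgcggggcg
Mt2 (chr8:94172368-94172667, + strand): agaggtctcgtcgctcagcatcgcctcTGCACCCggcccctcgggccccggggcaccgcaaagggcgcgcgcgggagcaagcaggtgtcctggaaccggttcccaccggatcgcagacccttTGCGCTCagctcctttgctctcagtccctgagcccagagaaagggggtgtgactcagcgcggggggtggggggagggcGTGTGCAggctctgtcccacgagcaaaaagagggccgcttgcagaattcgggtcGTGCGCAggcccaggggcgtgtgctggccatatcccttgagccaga
The core occurs 3 times in the window of Mt1 and 4 times in that of Mt2, and once each in those of Nr3c2, Ddit4 and 1 of the 6 of Sgk1. At least 1 core was in 25.7% of all windows.

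A 3rd metallothionein, Mt3, which neurons and astrocytes of the brain express, was lowered in E1, at -0.54 ± 0.13 in the authors' deposited table (adjusted p = 0.000206). Its longest coding transcript has 536 bases, and its value lay within the quartile range of -0.65 to -0.12 of genes of 500 to 1000 bases. Its difference from Mt1 and Mt2 was not tested, and Mt4 is listed at 0 in both tables. Of 12 astrocyte markers 8 fell in E1, none rose and 4 were not called, and their summed level was 63600 in E1 against 71596 in E0, a ratio of 0.888. Slc1a2, a glutamate transporter gene that was not called, supplies much of that sum, and without it the ratio was 0.692. The median log2 fold change of the 12 was -0.42 in E1, and the ratios for Mt1 and Mt2 were 0.553 and 0.283. Gfap stood at -0.95 ± 0.14 and Aldh1l1 at -1.09 ± 0.15 in the authors' deposited table for E1. No astrocyte marker is listed at 0. In bulk tissue fewer cells of a type and less RNA per cell cannot be told apart, and the part of astrocytes in the levels of Mt1 and Mt2 was not tested.

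Transcript length moved with the fold change in E1. Over genes with mean counts of 50 or more in both tables, the median log2 fold change in E1 was -0.54 for the 25 whose longest coding transcript is under 500 bases, -0.37 for the 313 of 500 to 1000 bases and 0.21 for the 703 of 8000 bases or more. In E4 the medians were 0.017, -0.043 and 0.11. Mt2, with 511 bases, was below the quartile range of -0.65 to -0.12 of its length class in E1, and 0% of that class lay lower. Mt1, whose longest coding transcript has 1085 bases and whose first-numbered one has 549, was lower than all but 6.82% of genes of 1000 to 2000 bases and all but 12.5% of those of 500 to 1000. With the trend on length and GC content removed, Mt2 stood at -1.39 and Mt1 at -0.60 in E1, both still called (adjusted p = 1.5e-14 and 0.00158). What made length move with the fold change was not tested.

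**Figure D3:**
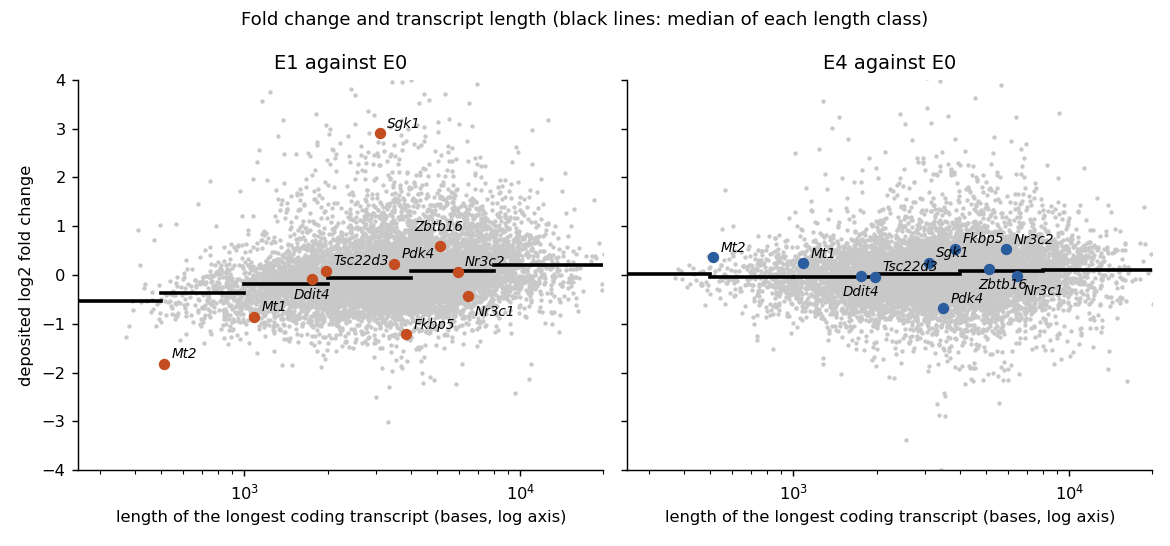
The x axis gives the length of each gene's longest coding transcript on a log scale and the y axis the deposited log2 fold change, cropped at -4 and 4, for E1 (left) and E4 (right), with genes with mean counts of 50 or more in both tables in grey and black lines at the median of each length class. The line climbs with length in E1, with Mt2 below every grey point of its class, and is nearly flat in E4.

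Zbtb16 encodes a zinc finger transcription factor (PLZF) that glucocorticoids induce in many cells. Its approximate means were 625 in E0, 947 in E1 and 682 in E4. It was raised in the authors' deposited table for E1 at 0.60 ± 0.18 (adjusted p = 0.00346, 1.51-fold), and in that for E4 it stood at 0.13 ± 0.14 (adjusted p = 0.521, interval -0.15 to 0.40). The later fold change was lower by 0.47 ± 0.23, which was not called (difference -0.47, adjusted p = 0.0880, and 0.00873 when a correlation of 0.5 is assumed for the shared E0 mice).

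Pdk4 encodes a mitochondrial kinase that switches off pyruvate dehydrogenase and is induced by fasting and glucocorticoids. It was the least read of the 10, with approximate means of 106 in E0, 126 in E1 and 65.9 in E4. The authors' deposited table for E4 had it lowered at -0.68 ± 0.22 (adjusted p = 0.00609, 1.6-fold lower). In that for E1 it was not called, at 0.23 ± 0.26 in the authors' deposited table (adjusted p = 0.533, interval -0.27 to 0.74). The fold change was -0.91 ± 0.34 in E4 relative to E1 (adjusted p = 0.0221).

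Tsc22d3 encodes GILZ, an anti-inflammatory leucine zipper protein, and Ddit4 encodes REDD1, an inhibitor of mTORC1 signalling. Tsc22d3 had approximate means of 693 in E0, 739 in E1 and 677 in E4, and Ddit4 had 693 in E0, 654 in E1 and 685 in E4. Neither was called at either time. Tsc22d3 stood at 0.09 ± 0.18 in E1 (adjusted p = 0.752, interval -0.27 to 0.45) and at -0.034 ± 0.28 in E4 (adjusted p = 0.942, interval -0.59 to 0.52) in the authors' deposited tables. Ddit4 stood at -0.081 ± 0.16 in E1 (adjusted p = 0.741, interval -0.39 to 0.23) and at -0.018 ± 0.14 in E4 (adjusted p = 0.938, interval -0.29 to 0.25) in the authors' deposited tables. The interval of Tsc22d3 in E4 is the widest of the 10 at that time and holds a change of up to 0.5 in either direction.

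The width of these errors set several of the genes apart. An SE contains the spread between mice as well as counting error, and genes of like mean count share the counting part. In E1 the SE of 6 of the 10 genes lay above the 90th percentile of the 200 genes nearest in mean count, Nr3c1, Fkbp5, Tsc22d3, Zbtb16, Mt1 and Mt2. In E4 this held for 5, Tsc22d3, Ddit4, Zbtb16, Mt1 and Mt2. Only 72 of 11085 genes (0.650%) with mean counts of 50 or more had an SE at least 2 times the median of like genes in E4, and 3 of them were Tsc22d3 (2.55 times), Mt2 (2.56) and Mt1 (2.51). In E1 it was 64 of 9993 genes (0.640%) and none of the 10. These shares were computed after the errors had been seen and carry no test, and without values per mouse it cannot be said which mice differed.

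**Figure D4:**
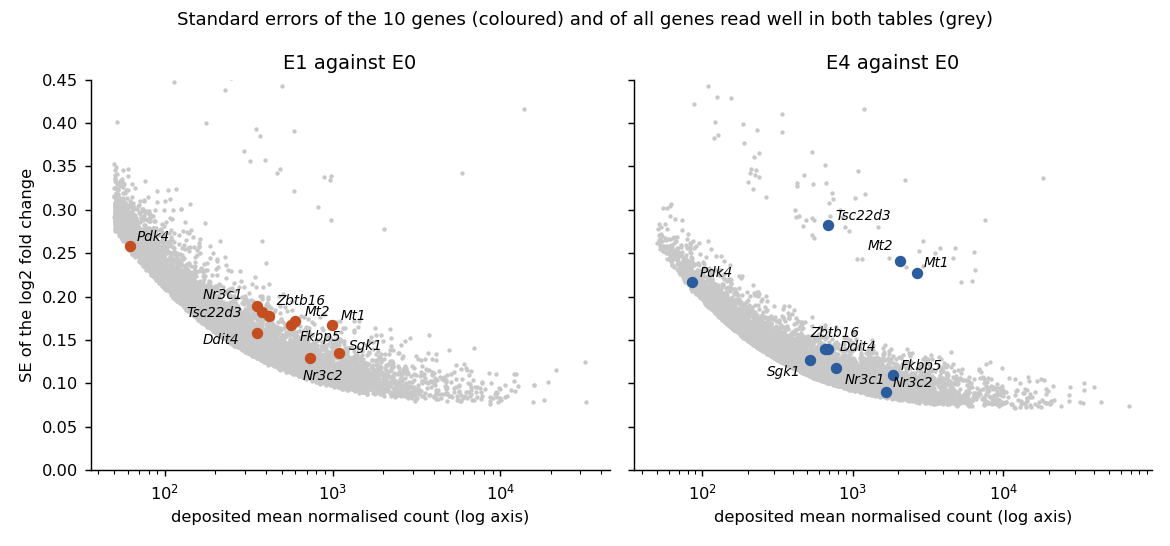
The x axis gives the deposited mean normalised count on a log scale and the y axis the SE of the log2 fold change, cropped at 0.45, for E1 (left) and E4 (right), with the 10 genes in colour and in grey all genes with mean counts of 50 or more in both tables. Tsc22d3, Mt1 and Mt2 lie above the main band in E4, and none of the 10 does so by as much in E1.

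By the difference of both fold changes over their combined error, 6 of the 10 genes differed between E4 and E1, against 36.7% of 12769 genes tested (17.7% higher in E4 and 19.0% lower). Nr3c2, Fkbp5, Mt1 and Mt2 were higher in E4 and Sgk1 and Pdk4 lower. Nr3c1, Zbtb16, Tsc22d3 and Ddit4 were not called, with intervals of -0.020 to 0.85 for Nr3c1, -0.91 to -0.029 for Zbtb16, -0.78 to 0.54 for Tsc22d3 and -0.35 to 0.48 for Ddit4. The median absolute difference was 0.69 over the 10 and 0.45 over all genes tested.

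Genes nearest to a pattern were sought among 9510 with mean counts of 50 or more in both tables, by the distance over both fold changes. For Sgk1 only 3 lay within 0.2, the transcription factor gene Atf1 (2.84 in E1 and 0.25 in E4), Prr5 (2.73 and 0.30) and Alkbh1 (2.74 and 0.35), in the authors' deposited tables. For Nr3c2 417 lay that near, with Nbas, Eif4g3 and Ets2 first, and for Nr3c1 672, with Pdzd11, Rpa2 and Hypk first. These counts follow from how far each gene lies from 0, where most genes are, and say nothing more of the patterns.

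Of 14 genes of the chaperone machinery that holds the receptors 7 rose, 2 fell and 5 were uncalled in E1 (median 0.30), and 8 rose, none fell and 6 were uncalled in E4 (median 0.37). Hsp90aa1, the inducible Hsp90, stood at 1.36 ± 0.11 in E1 and 0.74 ± 0.10 in E4 in the authors' deposited tables. The Hsp70 co-chaperone gene Dnajb1 stood at 1.99 ± 0.14 and 0.43 ± 0.13 in the authors' deposited tables. Fkbp4, whose product FKBP52 competes with FKBP51 and favours receptor activity, was lowered in E1 as Fkbp5 was, at -0.75 ± 0.12 in the authors' deposited table (adjusted p = 1.7e-08). In E4, where Fkbp5 was raised, Fkbp4 was not called (-0.13 ± 0.10, adjusted p = 0.327, in the authors' deposited table).

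Among 11 coregulators of nuclear receptors 3 rose, 1 fell and 7 were uncalled in E1 (median 0.11), and 4 rose, 2 fell and 5 were uncalled in E4 (median 0.097). The coactivator gene Ncoa1 was lowered at both times, at -0.38 ± 0.11 in E1 and -0.38 ± 0.10 in E4 in the authors' deposited tables. Ppargc1a was raised in E1 at 0.67 ± 0.17 and lowered in E4 at -0.46 ± 0.14 in the authors' deposited tables.

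Of 8 genes listed for hormone access and metabolism 6 had an adjusted p in E1, 1 raised, 2 lowered and 3 uncalled (median -0.17), and 5 in E4, none raised, 2 lowered and 3 uncalled (median -0.45). Hsd11b1, whose enzyme regenerates active corticosterone, was lowered in E1 at -0.74 ± 0.17 (adjusted p = 9.95e-05) in the authors' deposited table. H6pd, which supplies that enzyme's cofactor, was lowered as well, at -1.03 ± 0.36 (adjusted p = 0.0149) in the authors' deposited table for E1. Abcb1a, an export pump of brain endothelium, was raised in E1 at 1.11 ± 0.32 (adjusted p = 0.00203) in the authors' deposited table. It is itself one of 10 endothelial markers, and of the other 9 markers 3 rose, 1 fell and 5 were not called in E1, with a summed level without it of 1532 in E1 against 1004 in E0. No endothelial marker is listed at 0, and the part of those cells in this result was not tested.

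Other genes known to be induced by glucocorticoids went both ways. Of 23 with an adjusted p 10 rose, 5 fell and 8 were uncalled in E1 (median 0.29), and of 22 in E4 6 rose, 7 fell and 9 were uncalled (median -0.19). Per1, a clock gene, stood at 2.28 ± 0.13 in E1 and -0.21 ± 0.11 (not called) in E4, and Dusp1, a MAP kinase phosphatase gene, at 2.35 ± 0.21 and 0.0052 ± 0.22 (not called), in the authors' deposited tables. Arl4d was raised at both times, at 3.18 ± 0.18 in E1 and 3.02 ± 0.15 in E4, in the authors' deposited tables. Bcl6, a transcriptional repressor gene, was lowered at -0.41 ± 0.12 in E1 and -1.55 ± 0.12 in E4, and Cebpb was raised in E4 at 1.99 ± 0.14, in the authors' deposited tables.

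Of 9 genes that glucocorticoids repress in many cells and that had an adjusted p 4 rose in E1, none fell and 5 were uncalled (median 0.73), and of 8 in E4 2 rose, none fell and 6 were uncalled (median 0.27). Those raised in E1 were Fos, Jun, Bdnf and Ptgs2, which firing neurons are known to induce. Ptgs2, the inducible cyclooxygenase gene, stood at 4.16 ± 0.11 in E1 and 2.05 ± 0.30 in E4 in the authors' deposited tables.

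Close relatives of the 10 genes did not all move with them. Of 13 with an adjusted p 4 rose, 3 fell and 6 were uncalled in E1 (median 0.0052), and 2 rose, 4 fell and 7 were uncalled in E4 (median -0.13). The Tsc22d3 relative Tsc22d2 was raised in E1 at 1.90 ± 0.13 and in E4 at 0.59 ± 0.13 in the authors' deposited tables. The Ddit4 relative Ddit4l was lowered in E4 at -1.56 ± 0.25 (adjusted p = 2.6e-09) in the authors' deposited table. Among the pyruvate dehydrogenase kinase genes Pdk1 (-0.93 ± 0.12) and Pdk2 (-0.86 ± 0.09) were lowered in E4 as Pdk4 was, and Pdk3 was raised (0.68 ± 0.15), in the authors' deposited table.

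Of 10 genes of the response to metals and oxidants 4 rose, 1 fell and 5 were uncalled in E1 (median 0.15), and 4 rose, none fell and 6 were uncalled in E4 (median 0.085). Mtf1, the factor that binds metal response elements, was raised in E1, where Mt1 and Mt2 were lowered, at 0.45 ± 0.17 (adjusted p = 0.0213) in the authors' deposited table. Its longest coding transcript has 7631 bases, and its value lay within the quartile range of -0.24 to 0.47 of genes of 4000 to 8000 bases in E1. Genes of the lists were not adjusted for length, so whether this call would be kept was not tested. The zinc exporter gene Slc30a1, another target of Mtf1, was raised at 0.98 ± 0.13 in E1 and 0.61 ± 0.11 in E4 in the authors' deposited tables. Hmox1, the inducible haem oxygenase gene, was raised in E4 at 1.85 ± 0.21 and stood at 0.012 ± 0.35 in E1 in the authors' deposited tables.

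**Figure D5:**
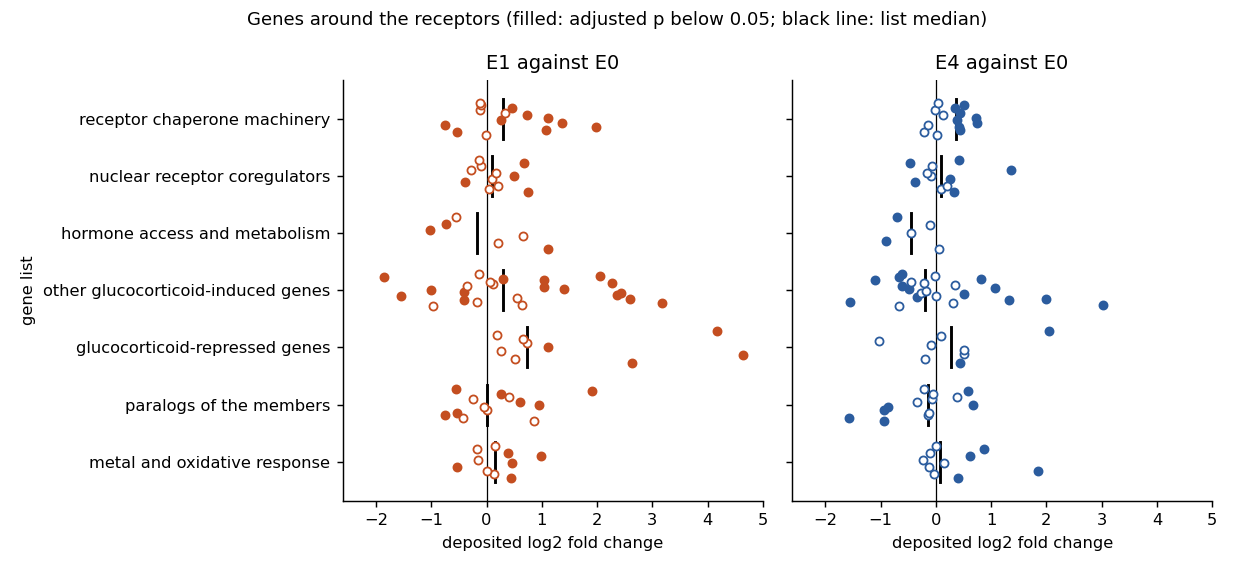
The x axis gives the deposited log2 fold change and the y axis 7 lists of genes around the receptors, for E1 (left) and E4 (right), each point a gene with an adjusted p, filled where it was below 0.05, and black lines the list medians. Receptor chaperones have medians above 0 at both times (0.30 and 0.37). Glucocorticoid-repressed genes lie above 0 in E1, with a median of 0.73 that is the value of the little-read and uncalled Mmp9.

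Markers of the tissue's cells also moved in E1. All 10 granule neuron markers were well read and none is listed at 0, with 2 raised and 8 lowered in E1 and 4 raised, 5 lowered and 1 not called in E4. Of 10 interneuron markers 6 rose and none fell in E1, of 9 pyramidal neuron markers 5 rose and 1 fell, and of 10 microglia markers none rose and 4 fell. Their summed levels in E1 over E0 had ratios of 0.638 for granule neurons, 1.5 for interneurons, 1.69 for pyramidal neurons and 0.713 for microglia, against 1.01, 1.07, 1.16 and 0.910 in E4 over E0. Much of the pyramidal rise in E1 came from Dkk3, with 593 in E0 and 2367 in E1 of summed levels of 4526 and 7661. Of 12 oligodendrocyte markers, cells in which Sgk1 is also expressed, 2 rose, 2 fell and 8 were uncalled in E1, with a ratio of 1.04, against the 7.46-fold rise of Sgk1. Nr3c2 is itself on the pyramidal list, of which 2 genes rose, Nr3c2 and Fibcd1, 2 fell and 4 were uncalled in E4. The list's ratio of 1.16 in E4 includes Nr3c2, which had 1356 in E0 and 1959 in E4 of summed levels of 4526 and 5235. Choroid plexus markers were near 0 apart from Kl and Ttr. The part of these cells in the levels of the 10 genes was not tested.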

How the data were processed

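Total RNA of the dentate gyrus of 9 mice was sequenced, 3 each in E0, E1 and E4, grouped by the sample titles. The authors aligned reads with TopHat2 to mm9 and compared groups with DESeq2, per the submitters' processing notes, where versions are absent. Counter, annotation, strand setting and formula were not given in the sources used here. Deposited mean counts are a signal, counts divided by size factors and averaged over a comparison's 6 libraries, per the file headers. The log2 fold changes and SEs are the authors' estimates, the score is their ratio, and p-values and adjusted p-values are as deposited. Each table lists 24015 genes, and 27 symbols of the E1 table turned into dates were left out of joins.

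Calls use the deposited adjusted p below 0.05. Group means were solved from mean count and fold change. The fold changes appear shrunken, since Il6, whose mean count is that of 1 read in E0, stood at only -0.11 ± 0.24 in E1. Group means may therefore be slightly too close together, and the E4 minus E1 difference rests on the same estimates. Intervals are 95%, from the SE. The E4 minus E1 difference was divided by the root of the summed squares of both SEs and referred to the normal distribution, with Benjamini-Hochberg adjustment over 12769 genes whose mean count reached 10 in both tables. The computation was run on simulated fold changes whose normal errors were drawn from these same SEs. That run checks the arithmetic, and cannot show whether the SEs or the normal distribution hold for these data. The difference ignores the shared E0 mice. No value per mouse was used, so no SD is given. Each p-value sets a fold change, or the difference of 2, against its SE, and measures no spread itself. Transcript lengths came from GENCODE vM21 (GRCm38), matched by symbol, with a value for 96.1% of genes with mean counts of 50 or more in both tables. Depth was read from the smallest steps in mean counts. Python 3.11.15, scipy 1.17.1 and pandas 2.3.3 were used.

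The 10 genes and all gene lists were chosen with earlier results of these data known. Of each list the text names up to 6 genes with the smallest adjusted p in either table, beside counts over the list. Alternatives concerned the adjustment, the threshold, centring, transcript length and the shared E0 mice.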

Additional observations from a re-analysis of the deposited data

Results flagged for a closer look

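For 6 of the 10 genes the fold changes at the 2 times differed by the test of the difference, against 36.7% of 12769 genes tested. The log2 fold change of E4 minus that of E1 was 1.75 for Fkbp5 (adjusted p = 1.3e-16), 2.18 for Mt2 (4.4e-12), 1.09 for Mt1 (0.00062) and 0.46 for Nr3c2 (0.0114). It was -2.64 for Sgk1 (8.5e-44) and -0.91 for Pdk4 (0.0221). Of the 10 genes Fkbp5 alone was called in opposite directions at both times, at 0.54 ± 0.11 in E4 and -1.21 ± 0.17 in E1 in the authors' deposited tables. The share of all genes with such opposite calls was not computed. How single mice lie within a group could not be examined.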

How the results depend on the processing

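The 2 raised and 3 lowered calls in E1, and the 2 and 1 in E4, were kept under every alternative run. Removing length and GC content, or the median of genes of like length, added Nr3c1 as a 4th lowered gene in E1 (-0.67, -0.62 and, with the first-numbered transcript, -0.55; adjusted p = 0.00189, 0.00421 and 0.0126, against 0.0634). The shortest coding transcript was tried before the first-numbered one, and is a poor measure, since entries as short as 300 bases for Nr3c1 are fragments. With it Nr3c1 was not added in E1 (-0.45, adjusted p = 0.0502), Sgk1 became a 3rd raised gene in E4 (0.32, adjusted p = 0.0347), and Nr3c1 at 0.050 and Ddit4 at 0.015 turned sign in E4. Signs turned only for uncalled genes. With length and GC content removed, Nr3c2 was at -0.077 and Ddit4 at 0.16 in E1, Ddit4 at 0.046 in E4, and the E4 minus E1 difference of Ddit4 at -0.12. With genes of like length subtracted, Nr3c2 was at -0.054 and Ddit4 at 0.041 in E1, and Ddit4 at 0.078 and Tsc22d3 at 0.029 in E4. With the first-numbered transcript Ddit4 was at 0.042 and Tsc22d3 at 0.032 in E4. The alternatives on like length, on length for the difference, on levels per kilobase and on sums without 1 marker were chosen after seeing the data. A correlation of 0.5 for the shared E0 mice raised the genes differing between E4 and E1 to 5 higher and 3 lower, from 4 and 2, by adding Nr3c1 and Zbtb16. Length settings added Nr3c1 (0.60 and 0.57, adjusted p = 0.0235 and 0.0306). Over all alternatives 190 values of single genes kept direction and side of the threshold, 12 turned sign and 8 gained a call. Leaving out a replicate was not run because the tables hold no value per mouse. No paired analysis was possible because the columns carry no replicate numbers. The E1 libraries were the shallowest, yet the SEs of Tsc22d3, Mt1 and Mt2 were larger in the comparison of E4.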

Other observations

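Other genes that shared the wide errors of Tsc22d3, Mt1 and Mt2 in E4 stand on several of the lists. With an SE at least 2 times that of genes of like mean count, they were Ptgs2 (2.84 times, a prostaglandin enzyme gene), the peptide genes Sst (2.77) and Npy (2.39) of the interneuron list, Gfap (2.67) of the astrocyte list and Flt1 (2.04) of the endothelial list. Which cells their reads came from was not tested. No gene of these lists reached that ratio in E1. Of these, Ptgs2 and Npy were called in E4, at 2.05 ± 0.30 and 1.74 ± 0.30 in the authors' deposited table. Sst stood at -0.53 ± 0.34, Gfap at 0.36 ± 0.23 and Flt1 at 0.17 ± 0.39 in the authors' deposited table for E4, none of them called.

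Genes of the lists also changed sign between the times as Fkbp5 did. Rasd1, which encodes a Ras-like protein first described as induced by dexamethasone, was raised in E1 at 1.03 ± 0.18 and lowered in E4 at -1.10 ± 0.19 in the authors' deposited tables. The reverse order, that of Fkbp5, was seen for some granule neuron markers. Among them were Pdzd2, at -2.14 ± 0.18 in E1 and 1.29 ± 0.10 in E4, and Bcl11b, at -1.17 ± 0.12 and 0.40 ± 0.09, in the authors' deposited tables. The granule list was mixed, with 8 of its 10 genes lowered in E1 and 4 raised in E4. Dsp, Lct and Tdo2 were lowered at both times, and C1ql3 was raised in E1 and lowered in E4. The pyramidal neuron marker Fibcd1 also had the order of Fkbp5 (-0.77 ± 0.24 in E1 and 1.48 ± 0.16 in E4). Rasd1 and Sst fall outside the rule for named genes and were chosen after their values were seen.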
